A study of Mus musculus with 44 samples.

Results

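Imprinted genes are transcribed mainly from 1 parental copy, and several of them set how much fetal and newborn tissue grows. The genes described here are 10 members of an imprinted growth network, Meg3, H19, Dlk1, Mest, Peg3, Ndn, Plagl1, Cdkn1c, Grb10 and Nnat, out of 15964 genes that the arrays' annotation names. They were selected on measured values, because Meg3 had fallen in GFP-positive cells at day 17 with 1 probe set disagreeing, and the question was whether the other imprinted genes follow. All probe sets annotated with a member were taken, 29 of 36701, and 20 of them (17 without Meg3) lay above the median of their array on at least 3 of the sorted arrays and were tested. The Meg3 values of the sorted day 17 cells are therefore a description without a test.

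The samples were primary osteoblast cultures from the calvaria, the flat bones of the skull, of 7 day old newborn mice, and the cells were sorted for green fluorescent protein (GFP). In the day 17 GFP-positive, day 17 GFP-negative and day 17 unsorted groups the transgene was pOBCol2.3GFP, and ascorbic acid with beta-glycerophosphate had been added from day 7 on. In the day 7 GFP-positive, day 7 GFP-negative and day 7 unsorted groups it was pOBCol3.6GFP and nothing was added, and all 6 groups were grown in DMEM with 10% fetal calf serum. Both transgenes put GFP under a type I collagen promoter fragment, and as background the shorter fragment marks differentiated osteoblasts while the longer one is already active in their precursors. Day, transgene and additions cannot be told apart.

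Each group held 3 RNA samples, from Exp100, Exp105 and Exp106 at day 17 and Exp99, Exp101 and Exp103 at day 7. Nothing beyond the experiment names says that these were separate cultures or animals, so p-values here speak to the scatter of these samples alone. The values are deposited array intensities, with trimmed means between 1069.3 and 1766.4 per array of type A. The sorted samples of Exp106 stood apart, with a mean correlation of 0.676 with the other sorted samples, against 0.826 among those others. Osteoblast markers were present in both fractions, and the osteoblast list of 9 genes summed to 397295 to 653143 intensity units in day 17 GFP-positive cells and 286218 to 413200 in day 17 GFP-negative cells. The collagen genes Col1a1 and Col1a2 made up most of each sum, so the sums hide larger differences of single markers. In the same list Ibsp read 61853, 78514 and 127044 in day 17 GFP-positive cells and 12642, 24730 and 12954 in day 17 GFP-negative cells. An array of RNA from many cells cannot tell apart fewer cells that express a gene and less of its RNA per cell, nor which parental copy the RNA came from.

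As background, Meg3 and H19 are maternally expressed long non-coding RNAs, and Cdkn1c and Grb10 are maternally expressed brakes on growth. Cdkn1c is the cell cycle inhibitor p57, and Grb10 is an adaptor that dampens insulin receptor signalling. Dlk1, Mest, Peg3, Ndn, Plagl1 and Nnat are paternally expressed. In the mouse H19 shares its domain with the growth factor gene Igf2, and Meg3 shares its domain with Dlk1 and Dio3. In GRCm38.p6 Meg3 lies at chr12:109540996-109571729 and Dlk1 at chr12:109452485-109463336. Ndn (chr7:62348277-62349928), Peg3 (chr7:6703892-6730462) and Cdkn1c (chr7:143458339-143461059) share a chromosome with H19. Mest lies at chr6:30733506-30748466, Plagl1 at chr10:13090832-13131694, Grb10 at chr11:11930499-12037428 and Nnat at chr2:157560078-157562525.

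The H19 probe set, 93028_at, is annotated with both H19 and the microRNA gene Mir675, which lies inside H19 (H19 at chr7:142575530-142578146 and Mir675 at chr7:142577064-142577147, GRCm38.p6, minus strand). It is written H19/Mir675 here, since the array cannot tell the host RNA from the microRNA precursor. The mature sequences of Mir675, from RefSeq, are shown because the probe set carries its name, with the seed (bases 2 to 8) in capitals, and their seeds differ.
mmu-miR-675-5p: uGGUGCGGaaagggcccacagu
mmu-miR-675-3p: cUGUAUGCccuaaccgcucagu

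RefSeq promoter sequences (GRCm38.p6) are shown for 4 members that were low in day 17 GFP-positive cells, Meg3, Ndn, Plagl1 and Mest, and for Peg3 and Dlk1, which were not called, so that a reader can set them side by side. Each is the 200 bases just before a transcription start, 5′ to 3′ on the gene's strand, and capitals mark matches to TGACGTCA (the cyclic AMP response element), GCATGCGC (the core of an NRF1 site) or TATAAA (a core promoter box that sets the start site) on either strand. The windows are chr12:109540796-109540995 (plus) for Meg3, chr7:62348077-62348276 (plus) for Ndn, chr10:13090632-13090831 (plus) for Plagl1, chr6:30737850-30738049 (plus) for Mest, chr7:6730420-6730619 (minus) for Peg3 and chr12:109452623-109452822 (plus) for Dlk1.
Meg3: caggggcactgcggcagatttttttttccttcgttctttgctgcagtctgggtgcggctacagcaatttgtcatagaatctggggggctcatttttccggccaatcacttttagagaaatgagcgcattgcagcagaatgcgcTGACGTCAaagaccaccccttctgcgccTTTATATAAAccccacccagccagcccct
Ndn: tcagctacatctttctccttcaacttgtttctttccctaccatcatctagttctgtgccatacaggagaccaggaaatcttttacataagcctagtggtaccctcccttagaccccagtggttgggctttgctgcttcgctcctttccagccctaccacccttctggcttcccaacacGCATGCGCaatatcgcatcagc
Plagl1: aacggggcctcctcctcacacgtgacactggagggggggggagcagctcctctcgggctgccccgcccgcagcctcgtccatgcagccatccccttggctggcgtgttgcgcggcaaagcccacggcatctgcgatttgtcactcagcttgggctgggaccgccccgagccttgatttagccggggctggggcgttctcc
Mest: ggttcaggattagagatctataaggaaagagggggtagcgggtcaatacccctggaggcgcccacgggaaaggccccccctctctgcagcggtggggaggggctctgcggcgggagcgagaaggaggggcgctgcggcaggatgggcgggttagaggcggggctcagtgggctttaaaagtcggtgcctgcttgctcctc
Peg3: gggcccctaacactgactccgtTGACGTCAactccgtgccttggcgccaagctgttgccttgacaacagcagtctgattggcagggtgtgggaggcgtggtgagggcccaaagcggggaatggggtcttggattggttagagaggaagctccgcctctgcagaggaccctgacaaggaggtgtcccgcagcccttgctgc
Dlk1: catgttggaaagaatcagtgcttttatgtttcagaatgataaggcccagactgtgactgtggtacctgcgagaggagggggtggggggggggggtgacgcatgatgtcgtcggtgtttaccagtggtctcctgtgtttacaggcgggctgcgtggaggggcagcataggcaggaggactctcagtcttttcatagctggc

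None of the motifs was in all 6 windows, and all 3 were picked after the sequences had been read. TGACGTCA was in Meg3 and in Peg3, and in 1.47% of the 32851 windows of that length before a RefSeq start. GCATGCGC was in Ndn and in 2.1% of all windows. TATAAA was in Meg3, in 2 overlapping matches on opposite strands, and in 9.96% of all windows. The windows of Plagl1, Mest and Dlk1 held none of the 3. The starts used for Mest, Dlk1 and Peg3 lie inside the gene spans given above, and that of Mest is the second one listed. Windows before other starts of these genes are not shown. A match is a description of these letters and not a binding site.

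Meg3 was measured by 9 probe sets, and the 3 that passed the filter did not give the same picture of the sorted day 17 cells. Probe set 160173_at on array A read 553, 548 and 392 in day 17 GFP-positive cells (Exp100, Exp105 and Exp106), against 9145, 5200 and 4502 in day 17 GFP-negative cells. All GFP-positive samples were low and the groups did not overlap. On the normalised log2 scale the difference was -3.45 ± 0.35 (SE, n = 3 each), or 10.9-fold lower in GFP-positive cells.

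Probe set 160172_at, also on array A, read 318, 246 and 154 in day 17 GFP-positive cells and 3185, 3190 and 531 in day 17 GFP-negative cells. The difference was -2.62 ± 0.83, with Exp106 lowest in both fractions, and after normalisation the groups overlapped. Probe set 166581_r_at on array C read 2333, 2361 and 2844 in day 17 GFP-positive cells, against 3743, 1028 and 2747 in day 17 GFP-negative cells. The groups overlapped and the difference was 0.07 ± 0.46. This is the probe set that disagreed, and its sign was not stable, with -0.49 without GFP-negative Exp105, -0.09 without GFP-positive Exp106 and 0.41 without GFP-negative Exp100. The other 6 Meg3 probe sets, on arrays B and C, did not pass the filter, and their log2 differences ran between -1.43 and 0.14 with overlapping groups. One of them, 165360_i_at on array B, read 7894 in the GFP-positive cells of Exp106 and 3098 in the GFP-negative ones, far above its other samples.

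**Figure D1:**
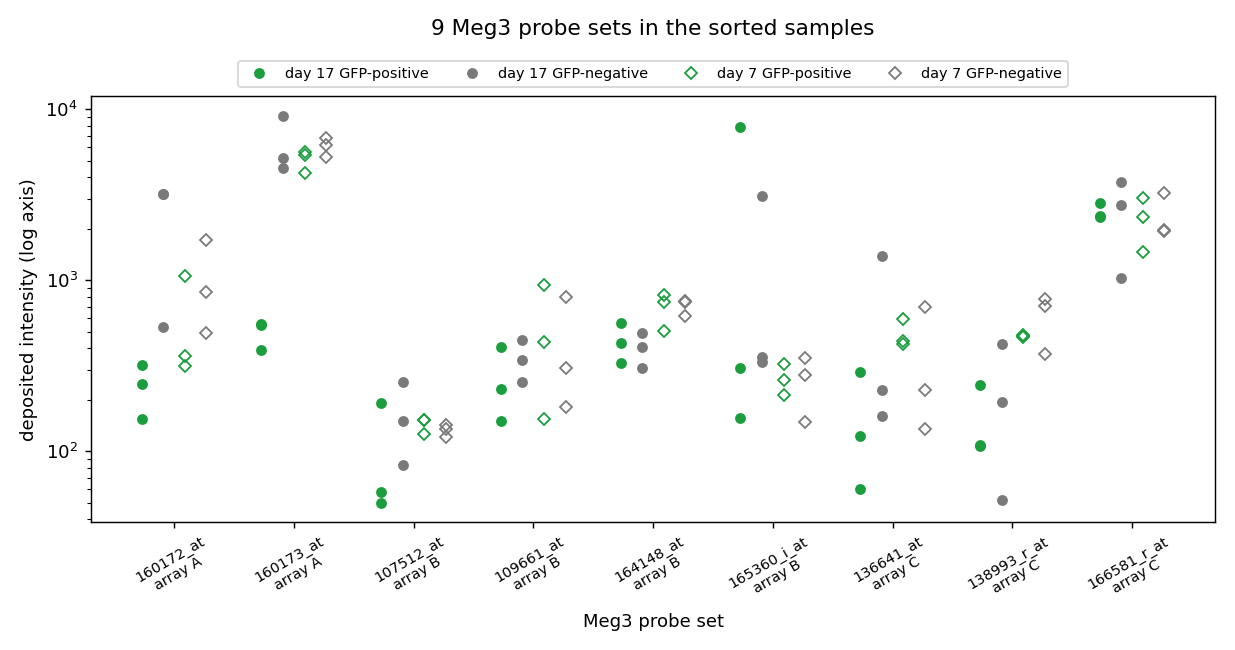
Deposited intensity on a log axis for the 9 Meg3 probe sets, 1 point per sorted RNA sample (3 per group). Filled circles are day 17, open diamonds day 7, green GFP-positive and grey GFP-negative. The day 17 GFP-positive points lie between 392 and 553 for 160173_at, below all other groups, and within the range of the others for 166581_r_at.

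In the other groups Meg3 160173_at stayed high. It read 6941, 4806 and 3107 in day 17 unsorted cells. At day 7 it read 5371, 4216 and 5631 in GFP-positive cells, 6147, 5223 and 6779 in GFP-negative cells, and 6105, 5720 and 5186 in unsorted cells. The lowest of these 15 samples, 3107, was above the highest day 17 GFP-positive sample, and the ranges of the other 5 groups overlapped each other.

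The H19/Mir675 probe set was also lower in day 17 GFP-positive cells. It read 21431, 13131 and 18638 in day 17 GFP-positive cells, against 71254, 62455 and 64573 in day 17 GFP-negative cells. The GFP-positive samples were all low and the groups did not overlap. The log2 difference was -2.04 ± 0.22 (SE, n = 3 each), 4.12-fold lower, with limma's adjusted p = 0.00106 over all probe sets tested and 0.0016 with experiment as a block. In the 15 samples of the other 5 groups the probe set stayed between 57761 and 82571.

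Of the maternally expressed growth inhibitors, Cdkn1c was low in GFP-positive cells when experiments were compared with themselves. Cdkn1c 95471_at read 3928, 2764 and 2320 in day 17 GFP-positive cells and 18983, 12196 and 6645 in day 17 GFP-negative cells. The groups did not overlap, and in both the sample of Exp106 was lowest. The difference was -1.89 ± 0.55 (adjusted p = 0.156), and with experiment as a block limma gave an SE of 0.17 and an adjusted p = 0.00312. Within Exp100, Exp105 and Exp106 it was -1.98, -2.15 and -1.55.

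Grb10 did not pass the test and rested on 1 experiment. Grb10 93691_s_at read 1996, 2990 and 110 in day 17 GFP-positive cells, against 4133, 4108 and 2697 in day 17 GFP-negative cells. The value of 110 belongs to Exp106, and the GFP-positive sample at 2990 lay above the lowest GFP-negative one. Its difference was -1.91 ± 1.02 (adjusted p = 0.578, with the block 0.261), made of -0.50, -0.48 and -4.76 in Exp100, Exp105 and Exp106. Grb10 93690_at showed the same split, at -0.52, -0.30 and -3.45. Grb10 170503_r_at on array C went the other way in Exp105 and Exp106, at 1.19 and 1.93, and was -1.89 in Exp100. The fourth Grb10 probe set, 95450_at, was dim (24 to 318 over all samples) and was not tested.

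Among the paternally expressed members, Ndn encodes necdin, a protein that restrains cell division in neurons and other cells. Ndn 101059_at read 900, 1241 and 719 in day 17 GFP-positive cells, against 3520, 3080 and 2561 in day 17 GFP-negative cells. All GFP-positive samples were low, with a difference of -1.51 ± 0.29 (adjusted p = 0.0263, with the block 0.00919). The call was lost without GFP-negative Exp100 (adjusted p = 0.13) or GFP-negative Exp105 (0.102). The second set, 94811_s_at, read 965, 992 and 444 in day 17 GFP-positive cells and 3805, 3063 and 1276 in day 17 GFP-negative cells, which overlapped after normalisation. Its difference was almost the same, -1.53 ± 0.50 (adjusted p = 0.226), and passed with the block (SE 0.18, adjusted p = 0.00728). Without GFP-positive Exp106 it was -0.94 (adjusted p = 0.292).

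Plagl1 encodes a zinc finger transcription factor that can arrest the cell cycle and that regulates other imprinted genes. Plagl1 92502_at read 1113, 1065 and 314 in day 17 GFP-positive cells, against 4240, 3136 and 3013 in day 17 GFP-negative cells. The groups did not overlap and the sample of Exp106 was the lowest. The difference was -2.11 ± 0.53 (adjusted p = 0.0952, with the block 0.044). It was called at -1.30 without GFP-positive Exp106 (adjusted p = 0.0198) and at -2.63 without GFP-positive Exp100 (0.0454).

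The other 3 Plagl1 probe sets also lay lower. On array B, 163814_r_at read 1492, 1948 and 424 in day 17 GFP-positive cells and 5791, 3726 and 3256 in day 17 GFP-negative cells, a difference of -1.98 ± 0.53 (adjusted p = 0.123, with the block 0.0458). It was called at -1.17 without GFP-positive Exp106 (adjusted p = 0.0479). The dimmer 92501_s_at differed by -1.67 ± 0.71 (adjusted p = 0.407, with the block 0.145), with 59 in GFP-positive cells of Exp106, and by -0.62 without that sample. On array C, 166084_f_at read 18323, 12519 and 15209 in day 17 GFP-positive cells and 55713, 49589 and 43438 in day 17 GFP-negative cells, a difference of -1.83 ± 0.26 (adjusted p = 0.00402, with the block 0.00547). This set has no accession in the annotation, and its suffix marks a probe set that can bind a family of transcripts, so its assignment to Plagl1 is uncertain. Peg3 161316_f_at likewise has that suffix and no accession. Grb10 170503_r_at and Dlk1 169192_i_at have no accession either, so the assignments of these sets are uncertain too.

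Mest encodes a hydrolase-like protein that is abundant in growing mesenchyme. Mest 92607_at read 1167, 1170 and 1234 in day 17 GFP-positive cells, against 13703, 9705 and 4210 in day 17 GFP-negative cells. The GFP-positive samples were close to each other and the GFP-negative samples were all higher and widely spread. The difference was -2.62 ± 0.65, 6.14-fold lower (adjusted p = 0.0884), and passed with the block (SE 0.26, adjusted p = 0.00386). Mest and Cdkn1c also varied between experiments at day 7, where Mest read 1247, 1194 and 1550 in the GFP-positive, GFP-negative and unsorted cells of Exp99, and at least 4200 in each sample of Exp101 and Exp103.

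Dlk1, Peg3 and Nnat gave no call. Dlk1 encodes a membrane protein of the Notch ligand family that holds back differentiation of preadipocytes, and Dlk1 101975_at read 1641, 2831 and 2947 in day 17 GFP-positive cells, against 2857, 2098 and 3350 in day 17 GFP-negative cells. The groups overlapped, with a difference of 0.00 ± 0.28 (adjusted p = 1). A second set, 169192_i_at on array C, differed by -0.03 ± 0.87, with values within experiments from -2.27 to 2.21, and one more, 108265_at, was too dim to test. Peg3, a zinc finger protein, had differences of -0.68 ± 0.43, -0.82 ± 0.52 and 0.07 ± 0.26 in probe sets 101451_at, 96765_at and 161316_f_at, with groups that overlapped after normalisation. Within Exp100, Exp105 and Exp106 the second was 0.09, -0.53 and -2.01, and without GFP-positive Exp106 the first was -0.17 and the second -0.11. Nnat, a small membrane protein of brain and endocrine cells, was below the median of its array in nearly all samples and was not tested, at 115, 87 and 75 in day 17 GFP-positive cells and 211, 252 and 300 in day 17 GFP-negative cells.

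**Figure D2:**
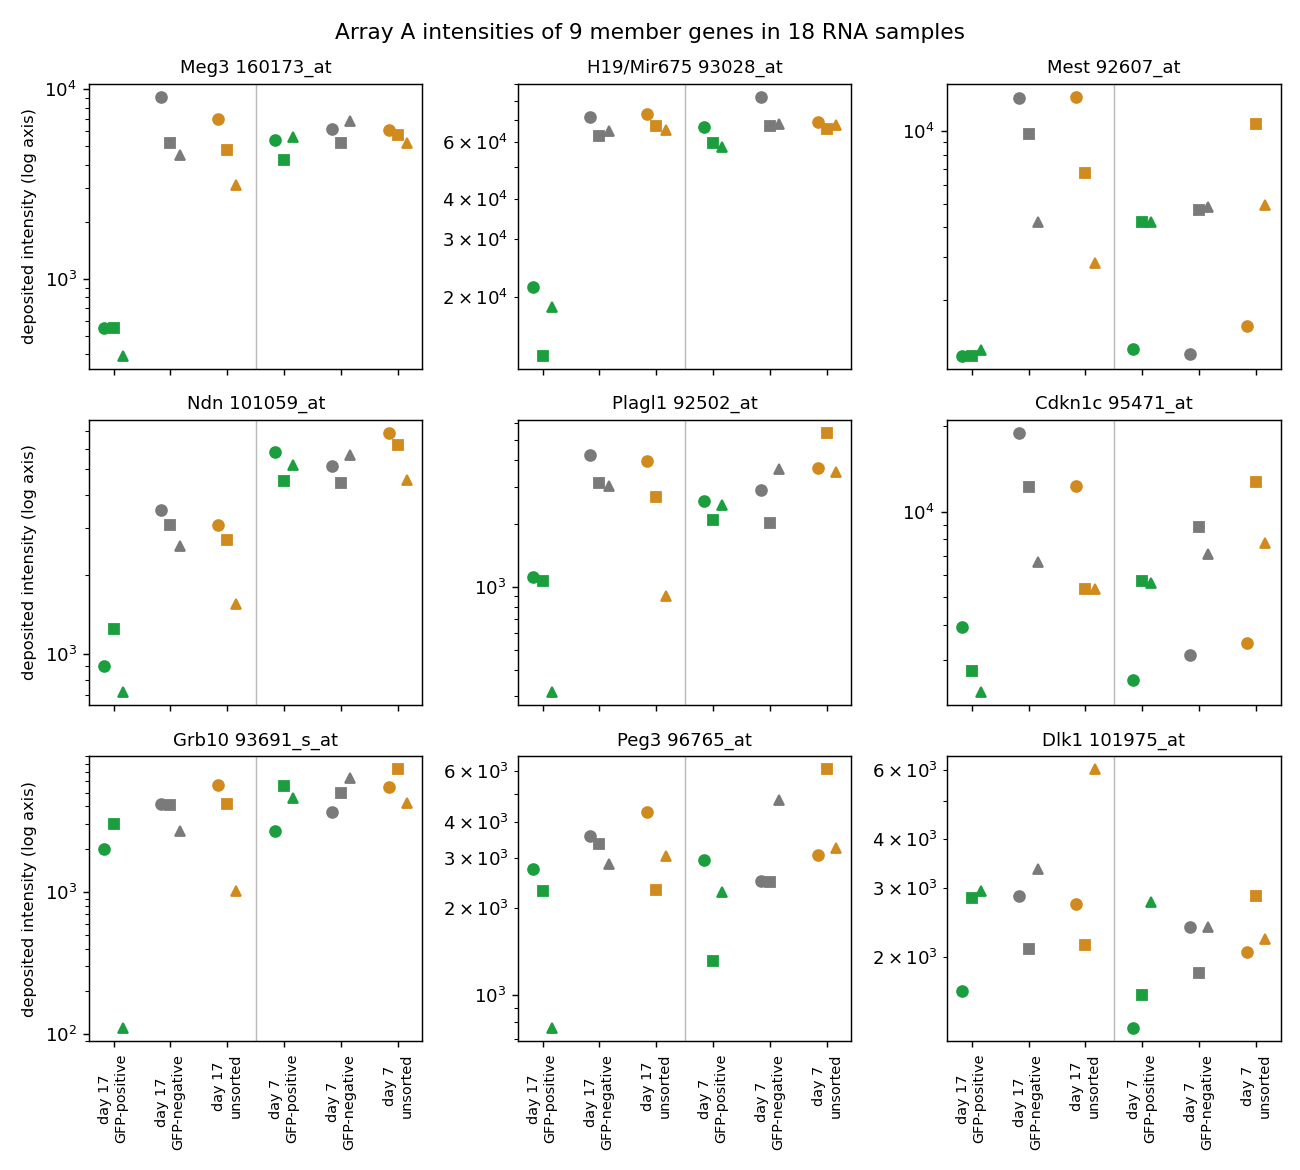
Deposited intensity on a log axis for 1 array A probe set of each of 9 members, 1 point per RNA sample (n = 3 per group). Circles, squares and triangles are Exp100, Exp105 and Exp106 at day 17 and Exp99, Exp101 and Exp103 at day 7. Day 17 GFP-positive cells lie below day 17 GFP-negative cells for Meg3, H19/Mir675, Mest, Ndn, Plagl1 and Cdkn1c. Peg3 also lies lower on this deposited scale but overlaps after normalisation. Grb10 is lowest in the GFP-positive sample of Exp106, and Dlk1 overlaps across groups.

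Counted over the tested probe sets without Meg3, 3 of 17 fell in day 17 GFP-positive cells and 0 rose, against 0.973% of all probe sets tested that fell (215 of 22099). The 3 were Ndn 101059_at, H19/Mir675 93028_at and Plagl1 166084_f_at. With experiment as a block 8 of 17 fell, from 5 genes (H19/Mir675, Mest, Ndn, Plagl1 and Cdkn1c), against 2.19% of all. After normalisation every GFP-positive sample lay below every GFP-negative sample in 7 of 17, which held for 7.43% of all probe sets. The log2 differences ran from -2.62 to 0.41 with a median of -1.53, against -0.01 over all probe sets tested. These counts describe probe sets that passed the filter, and several of them share a gene.

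The size of the shift depended on Exp106. Without its GFP-positive sample the median of the 17 was -0.62 and 5 were called, and without Exp106 it was -0.91 and 6 were called. In a fit of only the day 17 sorted groups 0 were called, at adjusted p = 0.062 for H19/Mir675, 0.0879 for Plagl1 166084_f_at and 0.311 for Ndn 101059_at. Calls over all probe sets also rose without Exp106 and dropped in the fit of only these groups. Neither change is thus particular to the members, and the counts are in the last section. For single libraries left out, calls over all probe sets are given there only as a range. Within Exp100, Exp105 and Exp106 the median was -1.36, -0.90 and -1.85, and 15, 14 and 15 of 17 probe sets were below 0.

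**Figure D3:**
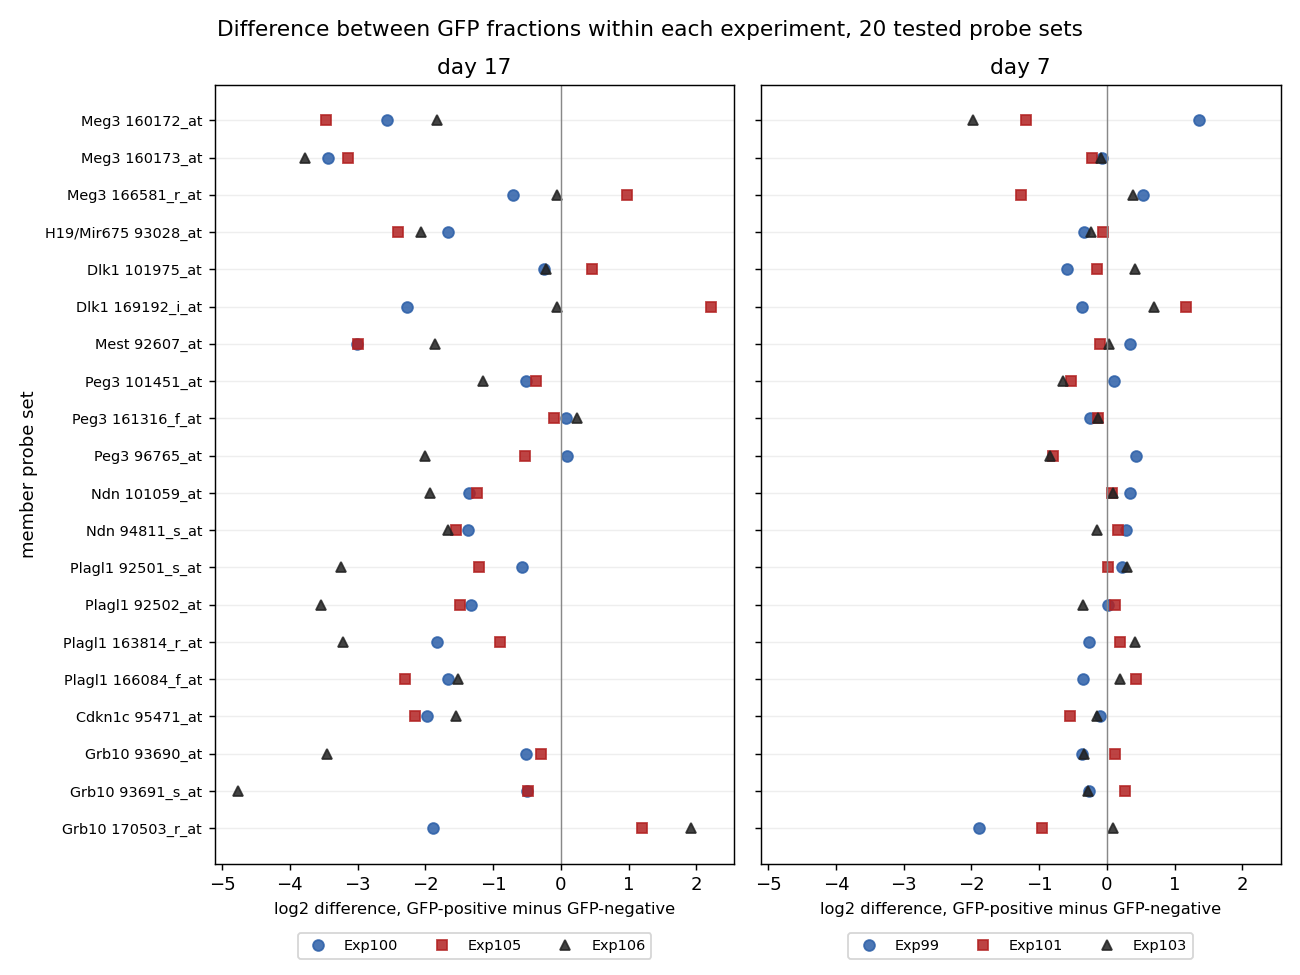
Normalised log2 difference between GFP-positive and GFP-negative cells within each experiment, for the 20 tested member probe sets, at day 17 (left) and day 7 (right). At day 17 the points of H19/Mir675, Mest, Ndn, Plagl1 and Cdkn1c lie below 0 in all 3 experiments. So do those of Meg3 160172_at and 160173_at, Peg3 101451_at, and Grb10 93690_at and 93691_s_at. At day 7 most points lie near 0.

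Some markers of other cell types also differed between the fractions. Over all 22099 probe sets tested, 215 fell and 62 rose, and with the block 484 fell and 220 rose. In the list of fibroblast and mesenchymal progenitor markers 4 of 13 tested genes fell in day 17 GFP-positive cells (8 with the block) and 0 rose, and its 13 genes on array A summed to 87704 to 105900 in day 17 GFP-positive cells and 173411 to 260743 in day 17 GFP-negative cells. Lum and Col3a1, its brightest members, differed by -0.63 ± 0.21 and -1.27 ± 0.44 (adjusted p = 0.234 and 0.266, with the block 0.103 and 0.00879). Smooth muscle and pericyte markers had 2 of 5 lower, Acta2 (-1.62 ± 0.21, adjusted p = 0.00268) and Tagln (-2.34 ± 0.30, adjusted p = 0.00223), both actin cytoskeleton genes, and the list's 8 genes on array A summed to 9474 to 14146 in day 17 GFP-positive cells and 33558 to 46094 in day 17 GFP-negative cells. With the block 3 were lower and 1 higher, the pericyte gene Cspg4 (3.14 ± 1.23, adjusted p = 0.356, with the block 0.0378), which is named after its values were seen.

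Macrophage and leukocyte markers had 0 of 13 called, 13 of 13 below 0 and a median of -1.51, with sums of 17035 to 90653 in day 17 GFP-positive cells and 75846 to 125446 in day 17 GFP-negative cells. In Exp106 the order was turned, with a sum of 90653 for the GFP-positive sample and 75846 for the GFP-negative one. The block called 1 lower, Coro1a (adjusted p = 0.0467), named after its values were seen. The list's brightest members, Cd14 and Lyz2, differed by -0.39 ± 0.48 and -1.59 ± 0.52. Adipocyte markers had 1 of 2 lower, Lpl, and Cebpa differed by -0.46 ± 0.38. No marker of these 4 lists on array A was at the lowest value of 10 in all samples of a group. The part of these cell types in the fall of the imprinted genes was not tested. Cell cycle genes had 0 of 14 called and a median of -0.16, with Pcna at -0.31 ± 0.23 and Ccnb2 at -0.12 ± 0.22. Skeletal muscle (0 of 12, Actc1 and Ttn brightest), chondrocyte (0 of 5, Col11a1 and Col9a1) and endothelial markers (0 of 1, Eng tested and Pecam1 too dim) gave no call, nor did osteoblast markers (0 of 8, median 0.61, Col1a1 at 0.06 ± 0.35 and Col1a2 at 0.08 ± 0.28). With the block 3 osteoblast markers were higher, Dmp1 (2.85, adjusted p = 0.0452), Ibsp (2.31, 0.0152) and Pth1r (1.32, 0.0492), named after their values were seen. Dmp1 read 345, 800 and 258 in day 17 GFP-negative cells and 31 to 181 in day 7 sorted cells, and the lowest array A median was 369. Dmp1 thus could pass the filter only with day 17 GFP-positive arrays, where it was high, so its call is no fair test of a rise.

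At day 7 no member was called between the fractions. None of the 20 tested probe sets, Meg3 included, was called (0 of 22099 of all were, 0%), the lowest unadjusted p of a member was 0.19 (Grb10 170503_r_at), and in limma 398 probe sets of all had an unadjusted p under 0.05. The block also gave 0 calls, with 725 probe sets under that unadjusted p. The members' differences ran from -0.92 to 0.50 with a median of -0.11. Meg3 160173_at differed by -0.13 ± 0.35, H19/Mir675 by -0.21 ± 0.22, Ndn 101059_at by 0.17 ± 0.29 and Mest by 0.09 ± 0.65. Within Exp99, Exp101 and Exp103 the median of the 17 without Meg3 was -0.24, 0.02 and -0.13. Plagl1 92502_at read 2549, 2089 and 2438 in day 7 GFP-positive cells and 2889, 2015 and 3626 in day 7 GFP-negative cells. These groups overlapped, as did those of Cdkn1c, at 2559, 5695 and 5638 in day 7 GFP-positive cells and 3138, 8872 and 7125 in day 7 GFP-negative cells. Both fractions of Exp99 were the low ones for Cdkn1c. Dlk1 101975_at read 1315, 1599 and 2757 in day 7 GFP-positive cells and 2383, 1816 and 2388 in day 7 GFP-negative cells, again with overlap. Nnat, too dim to test, read 197, 59 and 192 in day 7 GFP-positive cells, against 56, 43 and 42 in day 7 GFP-negative cells.

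The difference between these GFP effects was tested directly, as day 17 minus day 7. H19/Mir675 was the 1 member of 17 called, at -1.83 ± 0.31 (adjusted p = 0.0415), against 0.19% of all probe sets called lower. With the block 3 of 17 were lower, H19/Mir675 (adjusted p = 0.0218), Mest (-2.70, adjusted p = 0.0341) and Plagl1 166084_f_at (-1.91, adjusted p = 0.0462), against 0.357% of all. Without it the last 2 had adjusted p = 0.563 and 0.0695. The H19/Mir675 call was lost without the filter (adjusted p = 0.0744) and without any 1 of the 6 day 7 sorted samples or of day 17 GFP-negative Exp100, Exp105 and Exp106 or GFP-positive Exp105, with adjusted p up to 0.146 and values from -1.95 to -1.60. For Meg3 160173_at, not tested, the difference was -3.32 ± 0.50.

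**Figure D4:**
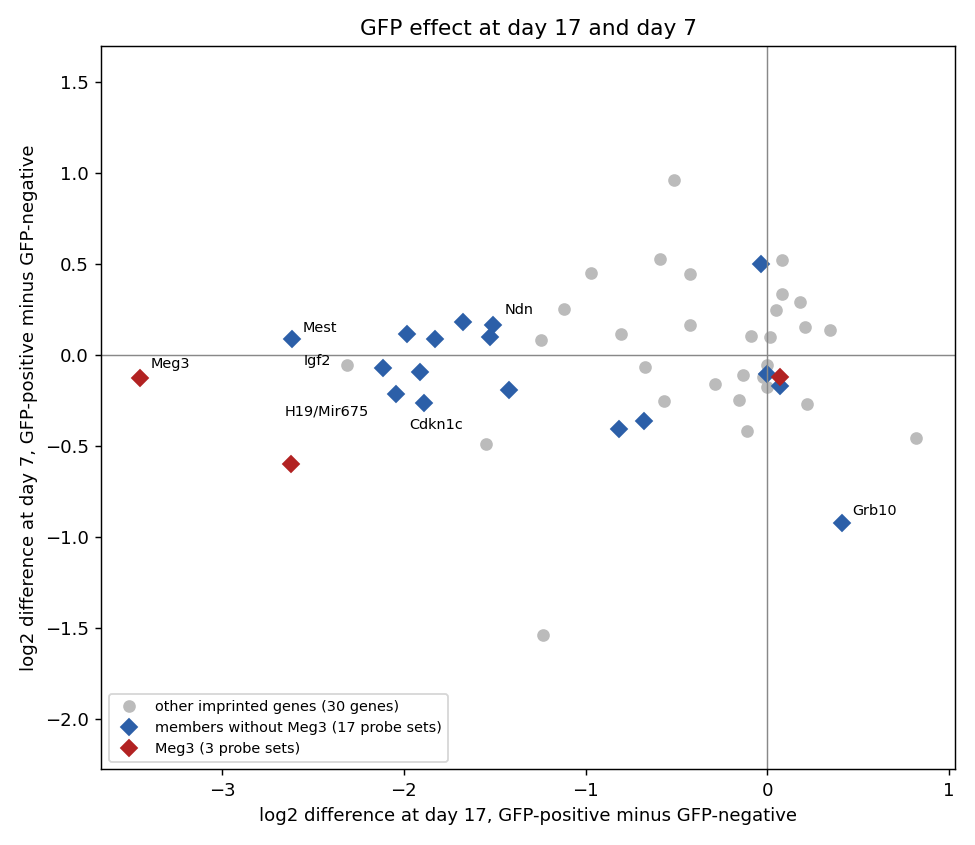
Log2 difference between GFP-positive and GFP-negative cells at day 17 (horizontal) and day 7 (vertical), for 17 member probe sets without Meg3 (blue), 3 of Meg3 (red) and 30 other imprinted genes (grey). Most members lie left of 0 at day 17 and near 0 at day 7, and Igf2 lies at -2.31 at day 17.

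Between days, GFP-positive cells read lower at day 17 than at day 7 for Ndn, H19/Mir675 and the uncertain Plagl1 set. Of 17 probe sets 4 fell and 0 rose, against 3.16% of all that fell, and 7 lay fully below the day 7 samples, against 15.4% of all. Ndn 101059_at read 900, 1241 and 719 in day 17 GFP-positive cells and 5803, 4506 and 5215 in day 7 GFP-positive cells, a difference of -2.40 ± 0.29 (adjusted p = 0.000914). Ndn 94811_s_at differed by -2.24 ± 0.50 (adjusted p = 0.0248), a call lost without GFP-positive Exp99, Exp101 or Exp103 of day 7 (adjusted p = 0.0866, 0.0759 and 0.0805). H19/Mir675 differed by -1.84 ± 0.22 (adjusted p = 0.000858) and Plagl1 166084_f_at by -1.91 ± 0.26 (adjusted p = 0.00163). Mest and Cdkn1c overlapped between the days and were not called, at -1.19 ± 0.65 and -0.58 ± 0.55 (adjusted p = 0.352 and 0.604). Plagl1 92502_at and 163814_r_at differed by -1.71 ± 0.53 and -1.92 ± 0.53 (adjusted p = 0.0958 and 0.0641) and were not called. The first was called at -2.23 without day 17 GFP-positive Exp100 (adjusted p = 0.042) and at -0.90 without Exp106 (0.0289), and was -0.89 and not called without GFP-positive Exp106 alone (0.0605). The second was called at -1.11 without Exp106 (0.0369) and at -2.39 without Exp105 (0.0387). This comparison shares its day 17 GFP-positive samples with the comparison of the fractions, so the results are not independent. Over all 22099 probe sets tested, 699 fell and 366 rose between the days in GFP-positive cells. Marker lists differed between the days in GFP-positive cells too, with 4 of 5 smooth muscle and pericyte markers lower (median -2.08), 4 of 13 fibroblast markers lower (median -0.90), 6 of 13 macrophage and leukocyte markers higher (median 1.95) and 4 of 8 osteoblast markers higher (median 2.23). Their part in the fall of the members was not tested.

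In GFP-negative cells 0 of 17 member probe sets were called between the days, against 0.434% of all (2436 of 22099 at an unadjusted p under 0.05). H19/Mir675 differed by -0.01 ± 0.22, and Ndn 101059_at by -0.73 ± 0.29 (adjusted p = 0.379), with 3520, 3080 and 2561 in day 17 and 5163, 4449 and 5689 in day 7 GFP-negative cells. Mest went the other way, at 1.51 ± 0.65 with overlapping groups (adjusted p = 0.418). The mean normalised log2 level of Cdkn1c in GFP-negative cells was 13.5 at day 17 and 12.4 at day 7. For these genes the day 17 difference between fractions thus also goes with higher GFP-negative means. In unsorted cells, on array A alone, 1 of 15 was called, against 2.67% of 7455 called lower. Ndn 101059_at read 3089, 2703 and 1543 in day 17 unsorted cells and 6878, 6193 and 4570 in day 7 unsorted cells, without overlap, a difference of -1.41 ± 0.31 (adjusted p = 0.0141). Meg3 was tested here, and 160173_at and 160172_at differed by -0.31 ± 0.36 and 0.75 ± 0.95 (adjusted p = 0.595 and 0.635). The Ndn call was lost without unsorted Exp106 (-1.05, adjusted p = 0.0597), Exp99 (0.0628) or Exp101 (0.0522). Over all 7455 probe sets tested in unsorted cells, 227 rose and 199 fell. In the same unsorted samples 10 of 14 macrophage and leukocyte markers (median 2.87) and 4 of 8 osteoblast markers (median 1.61) were higher at day 17, and 3 of 12 skeletal muscle markers were lower. Their part in the Ndn difference was not tested.

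Unsorted cells lay nearer to the GFP-negative fraction of their own experiment than to the GFP-positive one for 11, 10 and 10 of 15 array A probe sets, Meg3 included, in Exp100, Exp105 and Exp106 at day 17. The unsorted value of these sets lay above the GFP-positive one by a median log2 of 1.02, 0.89 and 1.30. At day 7 they lay nearer to the GFP-negative fraction for 5, 7 and 7 of 15 in Exp99, Exp101 and Exp103. The Meg3 sets, whose low day 17 GFP-positive values led to the selection, were nearer to the GFP-negative fraction in each day 17 experiment. The same count was not made over all array A probe sets, so these counts cannot be called particular to the members. Neither count was tested.

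Of 57 other imprinted genes on a list, 46 had a probe set and 30 were tested. Their median difference between fractions at day 17 was -0.15, against -0.01 over all probe sets tested. Of the 30, 1 fell in day 17 GFP-positive cells, against 0.973% of all probe sets, a count too small to set the list apart. The gene that fell was Igf2, the growth factor gene next to H19. Igf2 98623_g_at read 7612, 8261 and 16047 in day 17 GFP-positive cells, against 48844, 41208 and 51529 in day 17 GFP-negative cells. The groups did not overlap, and the difference was -2.31 ± 0.24, 4.96-fold lower (adjusted p = 0.00106, with the block 0.00127, 0.062 in a fit of only these groups). At day 7 Igf2 differed by -0.06 ± 0.24 between fractions, and the difference of the effects was -2.25 ± 0.34 (adjusted p = 0.0327). That call was lost without the filter (0.0521), on the deposited scale (0.0559) and without any 1 of 10 of the 12 sorted samples, those of Exp106 excepted (up to 0.12). A second Igf2 set, 98622_at, was too dim to test and differed by 0.67 at day 17. Between days Igf2 fell by 2.39 ± 0.24 on the log2 scale in GFP-positive cells (adjusted p = 0.000362).

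The block added Cd81, a tetraspanin gene (-0.67 ± 0.31, adjusted p = 0.469, with the block 0.0347). With the block 2.19% of all probe sets were called lower. Sgce, a dystrophin complex gene, lay lower without overlap and was not called (-1.12 ± 0.38, adjusted p = 0.251). Dcn, Igf2r and Gnas, for the proteoglycan decorin, the receptor that clears IGF2 and a G protein subunit, differed by -0.43 ± 0.23, -0.29 ± 0.40 and 0.00 ± 0.22, none called, and Peg10 was too dim to test. Between days, Dio3, a thyroid hormone deiodinase gene of the Dlk1 and Meg3 domain, fell by 2.66 ± 0.59 in GFP-positive cells (adjusted p = 0.0229), with 97, 235 and 76 in day 17 and 1110, 793 and 927 in day 7 GFP-positive cells. All day 17 sorted values of Dio3 (76 to 468) lay below the lowest array C median, 495. Dio3 thus passed the filter only through day 7 arrays, where it was high, so its call is no fair test of a fall. The Dio3 call was lost without GFP-positive Exp100 of day 17 (adjusted p = 0.0747) or any day 7 GFP-positive sample (up to 0.104). Dcn rose by 1.25 ± 0.23 in GFP-negative cells (adjusted p = 0.046), a call lost when any 1 of those samples was left out (up to 0.187). In unsorted cells Gatm, a creatine synthesis gene, rose by 2.35 ± 0.46 (adjusted p = 0.00794), lost without day 7 Exp103 (0.054), and Blcap, the gene around Nnat, fell by 1.38 ± 0.38 (adjusted p = 0.0433), a call lost without 5 of the 6 unsorted samples, one at a time (up to 0.167), and with the block (0.0723).

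Across the 18 samples of array A, the genes whose normalised log2 level ran most like Meg3 160173_at were Meox2 (Pearson r = 0.962), Emp1 (0.939), Rras (0.933), Gas1 (0.93) and Rhoj (0.929), out of 5646 genes. Among the members H19/Mir675 had r = 0.923, and 7 genes were higher. Ndn had 0.847 and 0.843, Plagl1 0.849 and 0.719, Grb10 0.703 and 0.732, Mest 0.596 and Cdkn1c 0.571. Peg3 had 0.613, 0.564 and -0.235 in its 3 probe sets, and Dlk1, which lies in the same domain as Meg3, had -0.314. The samples include the day 17 GFP-positive ones whose low Meg3 led to the selection. A gene that was low in those same samples would have a high r for that reason alone, so the r values are no further support. How far they rest on those samples was not tested. The samples also share experiments and fall into 2 days, so these values are a description.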

How the data were processed

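The values are Affymetrix array intensities deposited by the authors, 1 per probe set and array, in whole numbers from 10 up. The steps from probes to these values, and their scaling, are not given in the sources used here. Arrays A, B and C hold different probe sets and were hybridised with the same RNA, and their number limits the precision. Unsorted RNA was measured with array A, apart from 2 further arrays (B and C) of Exp106, which were used in no test.

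Probe sets were named from the platform annotation, with symbols updated through RefSeq. Values were log2(intensity + 32), quantile normalised within array type over the samples of a fit. Probe sets above their array's median on at least 3 arrays were tested. Group means were fitted with limma 3.58.1 (R 4.3.3, lmFit, eBayes with a trend, A, B and C stacked) to 12 sorted samples, or to 18 samples on array A for unsorted cells. P-values were adjusted within each comparison by Benjamini-Hochberg across every probe set tested, with calls under 0.05, and differences are on the log2(intensity + 32) scale, which understates those of dim probe sets. The script was tested on simulated data.

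Fractions of an experiment share its name in the sample titles and were taken as pairs. Their deviations from the group means correlated at 0.239, 0.311 and 0.53 in Exp100, Exp105 and Exp106 and at 0.108, 0.148 and 0.152 in Exp99, Exp101 and Exp103. Experiment was a fixed block within a day and a random block (statmod 1.5.0) between days.

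The members, gene lists and alternatives were chosen with earlier results of these data known. Named were all members, the other imprinted genes that were called, Igf2, Igf2r, Dcn, Gnas, Sgce and Peg10, the 2 brightest genes of each marker list and the 5 genes most like Meg3, 1 probe set per gene. H19 shares its probe set with Mir675 and is an exception to the rule that a probe set names 1 gene. Promoters and microRNAs are from RefSeq. H19 and Cdkn1c have no promoter in that table. Alternatives were other pseudocounts (8 and 128), testing without a filter or with one at the 75th percentile, the deposited scale, only the groups compared, the blocks, leaving out Exp106 or each sample in turn, and, added after seeing the data, a variance trend per array type.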

Additional observations from a re-analysis of the deposited data

Results flagged for a closer look

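The effect of GFP sorting differed between the days for H19/Mir675 93028_at, with day 17 minus day 7 at -1.83 ± 0.31 on the log2 scale (limma, adjusted p = 0.0415), with a GFP effect of -2.04 at day 17 and -0.21 at day 7. The same difference was -2.25 ± 0.34 for Igf2 98623_g_at (adjusted p = 0.0327), with effects of -2.31 at day 17 and -0.06 at day 7. All 3 day 17 GFP-positive samples lay below the other samples for both. Both calls were lost without single libraries, H19/Mir675 with adjusted p up to 0.146 and Igf2 up to 0.12. Groups of 3 samples were not examined for outlying samples.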

How the results depend on the processing

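Of 641 alternative values for single probe sets, 534 kept their direction and, where tested, their side of the threshold, 62 lost the call, 26 gained it and 19 changed sign, and of 94 medians 90 stayed within 1 SD between replicates. Between GFP fractions at day 17, member calls (3) were 0 with only the groups compared, 8 with experiment as a block and 6 without Exp106, and 2 to 5 when 1 library was left out. All probe sets called there (277) were 20, 704 and 774 under those settings and 117 to 630 with 1 library left out. At day 7, where 0 were called, no filter gave 1 and leaving out Exp106 gave 4, with 0 among the members. For the difference of the GFP effects member calls (1) were 0 without a filter, 2 with the filter at the 75th percentile, 3 with the block, 4 without Exp106 and 0 to 1 with 1 library left out, and all calls (49) were 20 without a filter, 32 on the deposited scale, 94 with the block, 205 without Exp106 and 0 to 125. Between days, all calls in GFP-positive cells (1065) were 457 with only the groups compared, 2359 without Exp106 and 456 to 1352. In GFP-negative cells (96) they were 57 without a filter, 56 on the deposited scale, 30 with only the groups compared, 385 without Exp106 and 17 to 80. In unsorted cells (426, of which 1 member) they were 211 (0 members) with only the groups compared, 930 (2) without Exp106 and 144 to 402 (0 to 1).

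Signs changed at day 17 where the values lay near 0. Dlk1 101975_at (0.00) was 0.11 without Exp106 and -0.15 to 0.14 with 1 library left out, and Dlk1 169192_i_at (-0.03) was 0.10 on the deposited scale and -0.62 to 0.66. Peg3 161316_f_at (0.07) was -0.13 on the deposited scale, -0.013 without Exp106 and -0.14 to 0.22. Grb10 170503_r_at (0.41) was -0.35 without Exp106 and -0.10 to 1.21, and Gnas (0.00) was -0.041 and -0.18 to 0.10. Meg3 166581_r_at (0.07, untested) was -0.49 to 0.41 with 1 library left out. The cause of these changes was not tested. With 3 samples a group and dim Meg3, Grb10, Dlk1 and Nnat sets below the filter, differences in those sets could not be tested.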
